A study of Mus musculus with 4 samples.

Results

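The genes described here are the Mef2 transcription factors Mef2a, Mef2c and Mef2d and the 4 genes of Ca2+/calmodulin-dependent protein kinase II, Camk2a, Camk2b, Camk2d and Camk2g. They were taken by name through their Ensembl gene identifiers and are 7 of the 40137 gene units in the count tables. The RNA came from the thigh, from skeletal muscle of wild-type males of the inbred strain C57BL/6J, and no treatment is listed for either age. There were 3 libraries from the age of 28 months and 1 from the age of 18 months. The study set out to check, by sequencing, age differences in alternative splicing seen on exon arrays. The labels do not say that the 3 libraries at 28 months came from separate animals, so p-values measure the spread between these libraries.

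The extraction text of the labels describes epidermal cells, whereas the tissue label says skeletal muscle. Markers of fast muscle fibres summed to 51825 to 129152 CPM (counts scaled to library size) at 28 months and to 82482 CPM at 18 months. Keratinocyte markers summed to 1.04 to 1.12 CPM at 28 months, against 0.891 CPM at 18 months, with Krt5 and Krt15 at 0 in all 4 libraries. Libraries held 67279205 to 76163175 counts at 28 months, against 65780464 at 18 months. Replicate 2 at 28 months stood apart: its fast-fibre sum was the lowest of the 4, and its sum for 5 markers of fibro-adipogenic progenitors, 6307 CPM, exceeded the sums of 2266 CPM in replicate 1, 2956 CPM in replicate 3 and 2788 CPM in the 18-month library. Schwann cell markers summed to 36.7 to 111 CPM at 28 months, against 219 CPM at 18 months, and macrophage markers to 76.9 to 131 CPM at 28 months, against 45.1 CPM at 18 months. Red-cell markers summed to 378, 145 and 3798 CPM in 28-month replicates 1, 2 and 3, against 183 CPM at 18 months. The part of these cells in the age differences was not tested. In whole tissue, fewer cells of a type and less RNA per cell cannot be told apart.

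Mef2 proteins bind DNA through a MADS domain next to a Mef2 domain, and in muscle they work with myogenic factors to switch on contractile and metabolic genes. Calcium/calmodulin-activated kinases relieve Mef2 proteins of repression by class II histone deacetylases, which links calcium in the fibre to transcription. Both families are rich in alternative exons. Mef2 transcripts carry 1 of 2 mutually exclusive exons behind the DNA-binding part and may include a short acidic exon called beta, while Camk2 transcripts differ in the variable linker between the kinase domain and the domain that assembles the holoenzyme. In Mef2d the upstream exon of the pair is the broadly used one, and the downstream exon is the one known from differentiated muscle. Within Camk2a lies a further gene product, alphaKAP, a protein of muscle without kinase domain that starts from its own internal exon and anchors the kinase at the sarcoplasmic reticulum.

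Exons of the Mef2 pair are shown first because the exon result turns on them. Each is given 5′ to 3′ on its gene's strand, as GENCODE M21 transcripts on GRCm38 hold it, and in the upstream exons capitals mark bases identical between Mef2d and Mef2a. In Mef2d, on the plus strand, the upstream exon lies at chr3:88158034-88158171 (138 bases) and the downstream exon at chr3:88158221-88158355 (135 bases). In Mef2a, on the minus strand, the upstream exon lies at chr7:67268269-67268400 (132 bases).
Mef2d upstream exon: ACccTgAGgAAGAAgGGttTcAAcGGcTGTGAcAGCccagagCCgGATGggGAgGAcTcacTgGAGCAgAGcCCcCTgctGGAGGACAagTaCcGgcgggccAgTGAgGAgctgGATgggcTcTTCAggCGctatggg
Mef2a upstream exon: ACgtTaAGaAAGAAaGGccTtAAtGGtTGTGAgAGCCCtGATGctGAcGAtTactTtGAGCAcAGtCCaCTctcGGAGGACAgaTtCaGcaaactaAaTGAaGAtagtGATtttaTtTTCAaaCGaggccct
Mef2d downstream exon: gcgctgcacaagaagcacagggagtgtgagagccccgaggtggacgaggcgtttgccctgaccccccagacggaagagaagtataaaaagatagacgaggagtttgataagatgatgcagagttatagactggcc
The upstream exons of the 2 genes were identical at 54.3% of aligned columns, and the 2 exons of Mef2d at 51.4%. All of these exons have a length divisible by 3.

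The beta exons, coding exons that add a few acidic residues, are shown because both genes hold one. They lie at chr3:88161781-88161801 in Mef2d (21 bases) and at chr7:67244521-67244544 in Mef2a (24 bases).
Mef2d beta exon: actgaggaccatttagatctg
Mef2a beta exon: tcggaggaagaggaattggagttg

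Summed over all bins of each gene (pieces of exon between annotated boundaries), no member passed the test of expression. Levels are CPM after TMM scaling, and each log2 difference is 28 over 18 months with its standard error (SE), from edgeR's quasi-likelihood test with Benjamini-Hochberg adjustment over 15376 gene units. With 1 library at 18 months, the spread came from the 28-month libraries alone. Of the 7 members, 0 were called, where 0% of all genes were. At an unadjusted p under 0.05 there were 0 members and 753 genes in all, and DESeq2 called 0 members, where 0.202% of all genes were called (31 genes). The members' log2 differences were above 0 in 2 and below 0 in 5, with a median of -0.23, against a median of 0.06 over all genes tested.

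Mef2a (ENSMUSG00000030557, chr7:67231163-67372858), needed for the mitochondria of mouse heart muscle, had 165, 137 and 162 CPM in the 28-month libraries, against 225 CPM at 18 months. The 18-month library was the highest of the 4, with a log2 difference of -0.54 ± 0.29 and an edgeR adjusted p of 0.859. Mef2c (ENSMUSG00000005583, chr13:83504034-83667080), the first Mef2 gene expressed in the mouse embryo's muscle, had 539, 331 and 481 CPM at 28 months, against 732 CPM at 18 months. It too was highest at 18 months, at -0.70 ± 0.40 (edgeR adjusted p = 0.859). Mef2d (ENSMUSG00000001419, chr3:88142372-88172086), whose muscle form activates late genes of differentiation, had 117, 78.7 and 107 CPM at 28 months, against 118 CPM at 18 months. Replicate 1 at 28 months came close to the 18-month library, and the log2 difference was -0.23 ± 0.33 (edgeR adjusted p = 0.915).

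Camk2a (ENSMUSG00000024617, chr18:60925618-60988152) had 245, 230 and 203 CPM at 28 months, against 279 CPM at 18 months, with a log2 difference of -0.30 ± 0.30 (edgeR adjusted p = 0.890). Camk2d (ENSMUSG00000053819, chr3:126596302-126846326), the main kinase gene of heart muscle, was the steadiest member at 101, 93.4 and 95.5 CPM at 28 months, against 102 CPM at 18 months. Its log2 difference was -0.08 ± 0.26 (edgeR adjusted p = 0.965). Camk2g (ENSMUSG00000021820, chr14:20734875-20794088), a kinase gene expressed in many tissues, had 172, 119 and 149 CPM at 28 months, against 120 CPM at 18 months. Its 18-month value lay just above replicate 2 and below the other 28-month libraries, at 0.28 ± 0.34 (edgeR adjusted p = 0.899).

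Camk2b (ENSMUSG00000057897, chr11:5969644-6066362), the gene of the beta kinase, of which muscle makes long forms, varied most. It had 323, 79.1 and 293 CPM at 28 months, against 184 CPM at 18 months. The 28-month libraries enclosed the 18-month one, and the log2 difference was 0.33 ± 0.81 (edgeR adjusted p = 0.9499). Fast-fibre markers summed to 118565, 51825 and 129152 CPM in the same 28-month libraries and to 82482 CPM at 18 months, and their part in the Camk2b values was not tested. The log2 difference of Camk2b was 0.02 ± 0.71 without replicate 1 and 0.13 ± 0.78 without replicate 3, called in neither fit. Without replicate 2, Camk2b was higher at 28 months by 0.76 ± 0.14 on the log2 scale (edgeR adjusted p = 0.0283), the only member called in that fit. That is 1 of 7 members, where 11.9% of all genes were called.

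In 5 of the 7 members (Mef2a, Mef2c, Mef2d, Camk2a and Camk2d) the 18-month library was the highest, as it was in 26.4% of all genes. In 0 of the 7 it was the lowest, as it was in 25.4% of all genes. With 1 library at 18 months this ordering rests on that library.

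**Figure D1:**
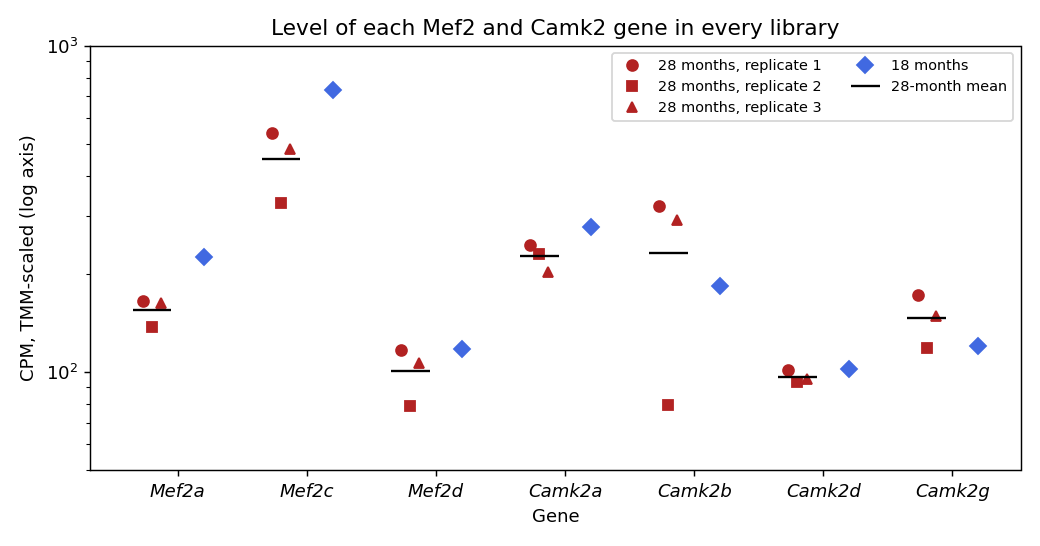
CPM after TMM scaling on a log axis for each of the 7 genes, with the 3 libraries at 28 months left of the 18-month library and a bar at the 28-month mean. The 28-month values of Camk2b run from 79.1 to 323 CPM, whereas those of Camk2d lie between 93.4 and 101 CPM.

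Levels of different genes were compared only per kilobase of exon. A fragment may be counted in every bin it touches, which can raise genes cut into many bins. Mef2c has 17 bins and Camk2d 65, and division by length does not correct for this. At 28 months Mef2c had 71.7 ± 17.2 CPM per kb (SD, n = 3), Mef2d 16.8 ± 3.29 and Mef2a 15.3 ± 1.50 CPM per kb, and at 18 months they had 117, 19.7 and 22.2 CPM per kb. Mef2c was the leading Mef2 gene in all 4 libraries, and the 28-month ranges of the other 2 overlapped. That overlap depended on the length taken. Divided by the longest coding transcript, Mef2a had 28.0 ± 2.73 CPM per kb at 28 months (SD, n = 3), with a range of 24.8 to 29.7, and 40.6 at 18 months. Mef2d had 18.7 ± 3.65 at 28 months (SD, n = 3), with a range of 14.6 to 21.6 below that of Mef2a, and 21.8 at 18 months. Among the kinases at 28 months, Camk2g had 39.6 ± 7.26 CPM per kb, Camk2a 30.3 ± 2.85, Camk2b 25.4 ± 14.6 and Camk2d 17.5 ± 0.743 (SD, n = 3). At 18 months Camk2g had 32.5, Camk2a 37.3, Camk2b 20.2 and Camk2d 18.50 CPM per kb. Neighbours in the 28-month order Camk2g, Camk2a, Camk2b and Camk2d had ranges that overlapped. For Camk2g with Camk2a, and for Camk2b with Camk2d, the overlap came only through replicate 2. The order of the kinases also depends on length. Divided by its expressed 4268 bases alone, Camk2a had 53.0 ± 4.98 CPM per kb at 28 months (SD, n = 3) and 65.3 at 18 months, above Camk2g in every library. Divided by the longest coding transcript, Camk2b had 80.2, 19.7 and 72.9 CPM per kb at 28 months (57.6 ± 33.1, SD, n = 3) and 45.8 at 18 months. Camk2a then had 45.5 ± 4.27 at 28 months (SD, n = 3) and 56.1 at 18 months. The 28-month mean of Camk2b was then the highest of the 4 kinases, but its replicate 2 lay below Camk2a and Camk2g.

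The balance within a family is free of library size, but can depend on the length taken and on how many bins each gene is cut into. Mef2c made up 70.6, 66.3 and 69.3% of Mef2 CPM per kb in the 28-month libraries and 73.6% at 18 months. Mef2a made up 13.4, 17.1 and 14.5% at 28 months and 14.03% at 18 months, within the 28-month range. Mef2d made up 16.01, 16.6 and 16.2% at 28 months and 12.4% at 18 months. The Mef2d share was therefore 3.82 percentage points higher at 28 months, with a 28-month SD of 0.284. An exact two-sided permutation test gave p = 0.25, the smallest that 3 libraries against 1 allow. The order of Mef2a and Mef2d depended on the length taken. The bins of Mef2a include 1 of 4257 bases with 0 counts in every library. With the longest coding transcript for all, Mef2a made up 21.7, 27.0 and 23.3% at 28 months and 22.7% at 18 months. Mef2d then made up 15.7, 15.8 and 15.7% at 28 months and 12.2% at 18 months.

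Camk2g made up 35.0, 36.2 and 34.4% of Camk2 CPM per kb at 28 months and 29.96% at 18 months. This was 5.22 percentage points higher at 28 months, with an SD of 0.9496 and the same smallest exact p of 0.25 (two-sided permutation). With Camk2a left out of the family, the 18-month share of Camk2g lay inside the 28-month range. Camk2a made up 24.7, 34.9 and 23.3% at 28 months and 34.4% at 18 months. Camk2b made up 26.6, 9.79 and 27.5% at 28 months and 18.6% at 18 months, so that these 2 genes exchanged rank between replicate 2 and the other 28-month libraries. Camk2d made up 13.8, 19.1 and 14.8% at 28 months and 17.05% at 18 months.

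**Figure D2:**
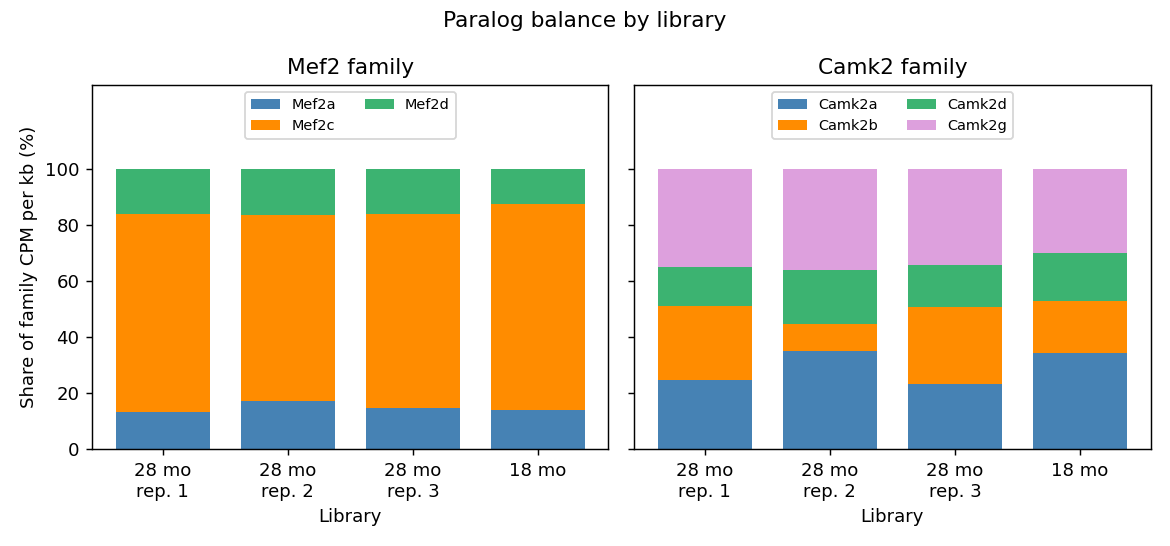
Stacked bars of each gene's share (%) of its family's CPM per kb in the 3 libraries at 28 months and the 18-month library, Mef2 genes in one panel and Camk2 genes in the other. Mef2c takes 66.3 to 73.6% of its family in every library, and Camk2b takes 9.79% in replicate 2 at 28 months. The shares depend on the length taken for each gene.

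The Camk2a counts lay almost wholly in its 3′ bins. Bins 1 to 18, which are 5′ of the first exon of alphaKAP and hold the kinase-domain exons, had 2, 14 and 4 counts at 28 months, against 0 counts at 18 months. The whole gene had 16382, 22473 and 12278 counts at 28 months, against 18148 at 18 months. The 5′ bins thus held 0.0122, 0.0623 and 0.0326% of counts at 28 months and 0% at 18 months, where 0 counts allow a share of up to 0.0165%. The remaining 12 bins, from the alphaKAP first exon on, held all the other counts. The coding part of that first exon (chr18:60963600-60963922) had 1060, 1734 and 828 counts at 28 months, against 1238 at 18 months, or 6.98 ± 0.657% of tested bins (SD, n = 3) against 6.82%. A short 33-base linker exon at chr18:60969011-60969043 had 703, 1106 and 478 counts at 28 months, against 639 at 18 months, close to those of its upstream neighbour, with 731, 1147 and 545 counts at 28 months, against 765 at 18 months. In all 4 libraries nearly all Camk2a counts thus lay in bins from the alphaKAP first exon on, the short linker exon among them.

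**Figure D3:**
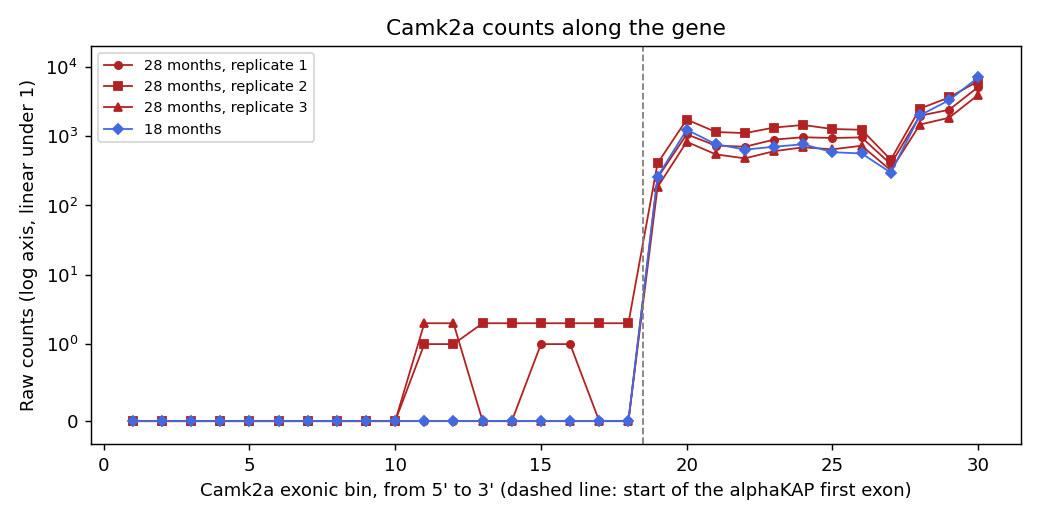
Raw counts per exonic bin of Camk2a from 5′ to 3′, on an axis that is logarithmic above 1 and linear below it, with 1 line per library at 28 and 18 months. Bins left of the dashed line hold at most 2 counts in any library, and all bins right of it hold 184 or more.

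Use of single bins was tested with edgeR diffSpliceDGE against the other bins of the same gene, on bins with a mean of at least 10 counts. The 7 genes have 234 bins, of which 34 had 0 counts in all libraries and 166 were tested. None of the 166 was called (edgeR, adjusted p under 0.05), where 0.366% of all bins were called. At an unadjusted p under 0.05 there were 10 member bins (6.02%), against 5.24% of all bins, and limma called 7 member bins, where it called 2.39% of all bins. Without replicate 2, edgeR called 49 of 165 member bins, 38 higher and 11 lower at 28 months, where 7.23% of all bins were called. Over all genes too, most of the bins called without replicate 2 were higher at 28 months. By the gene-wise Simes p with all libraries, 0 of 7 members were called, where 3.54% of all genes were. The gene-wise F-test called 6 of 7, all but Camk2b, where 30.7% of all genes were called. Without replicate 2 the Simes p called 5 of 7, all but Camk2a and Camk2g, where 30.5% of all genes were called. With all libraries limma called Camk2d and Camk2g, where 16% of all genes were called.

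A bin's share of its gene was higher in all 28-month libraries than at 18 months in 119 of the 166 member bins (71.7%), as in 54.3% of all bins tested. It was lower in 27 (16.3%), as in 21.8% of all bins. The position of counts along the transcripts also differed between the ages. Split at the middle bin, the 3′ side of Mef2a held 78.7, 77.7 and 81.2% of its counts at 28 months, against 86.6% at 18 months. The 3′ side of Camk2b held 67.4, 64.7 and 66.7% at 28 months, against 81.4% at 18 months, and that of Camk2g 65.9, 61.3 and 63.8% at 28 months, against 74.4%. In all 7 members the 18-month share lay above every 28-month share, as it did in 74.3% of the genes that averaged 100 counts or more. The median over those genes was 74.7, 73.5 and 74.6% at 28 months and 81.4% at 18 months, so the tilt was seen across the library and not in the members alone.

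**Figure D4:**
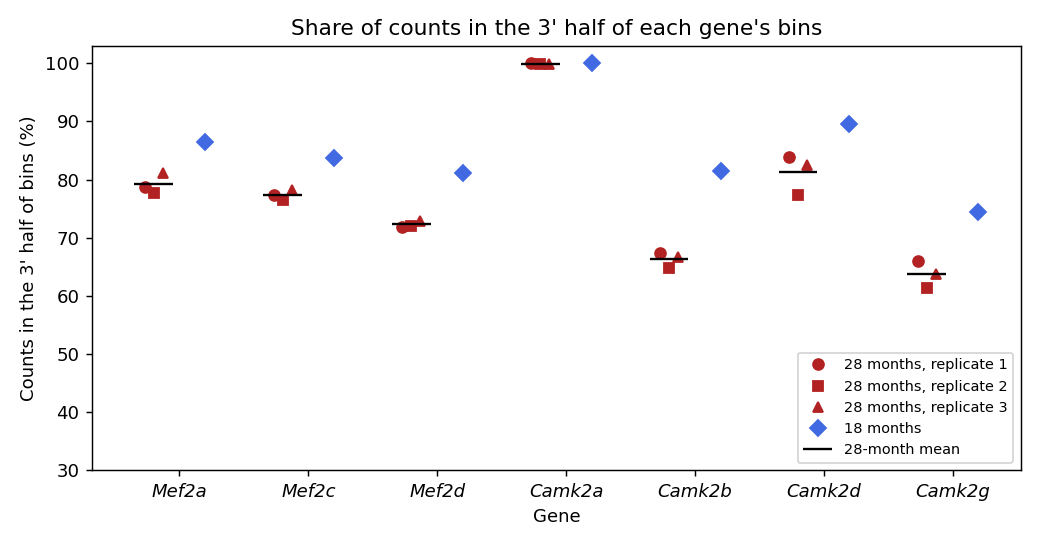
Share (%) of each gene's counts in the 3′ side of its bins, with the 3 libraries at 28 months left of the 18-month library and a bar at the 28-month mean. The 18-month point lies above all 28-month points in each gene, by little in Camk2a, whose shares are all near 100%.

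Where bins could be placed on the annotation, the tilt showed in the 3′ untranslated region. Bins past the coding part held 58.9, 58.8 and 61.9% of Mef2a counts at 28 months, against 74.2% at 18 months. In Mef2d they held 55.0, 55.6 and 56.4% at 28 months, against 70.5%, and in Camk2a 57.9, 54.9 and 59.0% at 28 months, against 68.0%. In Camk2b they held 39.2, 37.6 and 37.4% at 28 months, against 64.7% at 18 months.

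Levels over coding bins alone ordered the ages differently from levels over the whole gene in Mef2a, Mef2d and Camk2a. Mef2a coding bins had 64.0, 53.4 and 58.9 CPM at 28 months, against 55.2 CPM at 18 months, so the ages overlapped where the whole-gene sum had them apart. Mef2d coding bins had 50.7, 33.1 and 44.9 CPM at 28 months, against 32.9 CPM at 18 months, now lowest at 18 months. Camk2a coding bins had 99.5, 99.8 and 80.2 CPM at 28 months, against 85.3 CPM at 18 months. Camk2b coding bins had 195, 48.6 and 183 CPM at 28 months, against 64.3 CPM at 18 months. Over the 5′ side of their bins the log2 differences of Mef2a and Mef2d stayed below 0, at -0.42 (edgeR adjusted p = 0.738) and -0.18 (edgeR adjusted p = 0.905). Camk2d, whose bins could not be placed, had a log2 difference of 0.26 over the 5′ side of its bins (edgeR adjusted p = 0.845), against -0.08 over all bins. These 5′ fits took library sizes and TMM factors from the 5′ bins alone, whereas the coding bins kept the scale of the whole-gene sums. The order of the ages in Mef2a and Mef2d thus differed between coding bins and the whole gene. The signs over the 5′ side are on another scale and cannot be set against the coding bins. The cause of the tilt was not tested.

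Of the listed alternative exons, one of the Mef2d pair had the smallest unadjusted p. The downstream exon had 287 of the 391 counts on the pair in replicate 1 at 28 months, 314 of 406 in replicate 2 and 212 of 317 in replicate 3, against 239 of 278 at 18 months. Its share of the pair was 73.4, 77.3 and 66.9% at 28 months (72.5% ± 5.28, SD, n = 3) and 86.0% at 18 months, with an exact (Clopper-Pearson) 95% interval of 81.3 to 89.8%. The share was 13.4 percentage points lower at 28 months, and the groups did not overlap. The exact two-sided permutation p was 0.25, the smallest possible here. The exons of the pair lie in adjacent bins.

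By bin usage the ages were further apart at the upstream exon than at the downstream one. The upstream exon had 104, 92 and 105 counts at 28 months, against 39 counts at 18 months, and made up 1.39 ± 0.218% of the tested Mef2d bins at 28 months (SD, n = 3) against 0.509% at 18 months. Its usage log2 difference was 1.46, the smallest p among Mef2d bins, with an unadjusted p of 0.0148 and an edgeR adjusted p of 0.670. The downstream exon held 3.69 ± 0.406% at 28 months (SD, n = 3) and 3.12% at 18 months, with a usage log2 difference of 0.23 (edgeR adjusted p = 1.00). Per base and relative to the mean of its flanking exons, the upstream exon stood at 0.352, 0.325 and 0.454 at 28 months and at 0.195 at 18 months. The downstream exon stood at 0.993, 1.13 and 0.936 at 28 months and at 1.22 at 18 months. The upstream exon was thus the minor form in every library, and its share was larger in each 28-month library. Its usage log2 difference was 1.50 without replicate 1 and 1.33 without replicate 3, called in neither fit. Without replicate 2 the upstream exon was called, at a usage log2 difference of 1.53 (edgeR adjusted p = 0.00175).

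In Mef2a the upstream exon had 227, 232 and 182 counts at 28 months, against 174 at 18 months. Per base it stood at 0.728, 0.582 and 0.752 of its flanking exons at 28 months and at 0.604 at 18 months, inside the 28-month range. It held 2.06, 1.73 and 1.86% of the tested Mef2a bins at 28 months and 1.19% at 18 months, so by this share the 18-month library was the lowest. Its usage log2 difference was 0.67 (edgeR adjusted p = 1.00), and it was not called without replicate 2 either. A difference between the upstream exons of Mef2d and Mef2a was not tested.

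**Figure D5:**
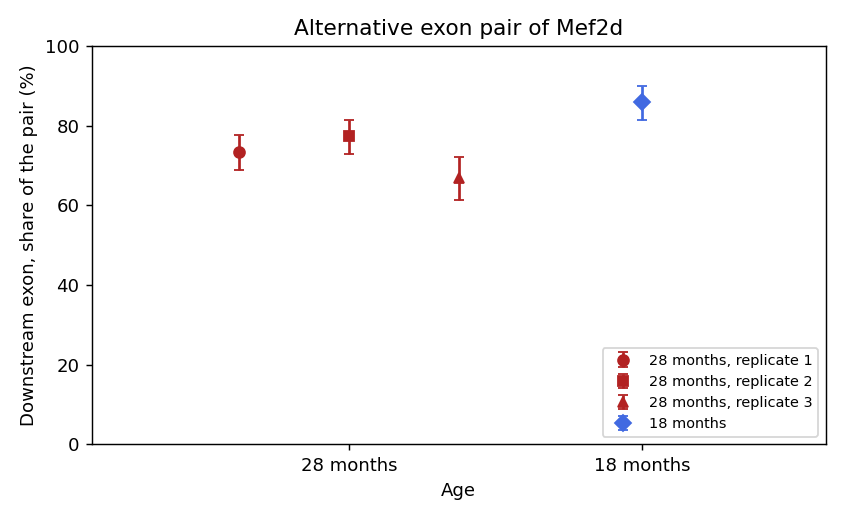
Share (%) of the downstream exon among counts on the alternative exon pair of Mef2d, with the 3 libraries at 28 months left of the 18-month library and bars for exact 95% intervals, which cover counting error only. The 18-month library is highest at 86.0%, and the 28-month libraries lie between 66.9 and 77.3%.

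The beta exons took a larger share of their gene in each 28-month library than at 18 months. In Mef2d the beta exon held 1.73, 1.49 and 1.41% of the tested bins at 28 months and 0.704% at 18 months, on 91 to 135 counts at 28 months and 54 counts at 18 months. Its usage log2 difference was 1.14, with an unadjusted p of 0.0455 and an edgeR adjusted p of 0.935. In Mef2a the beta exon held 2.18, 1.77 and 1.75% at 28 months and 0.923% at 18 months, on 171 to 240 counts at 28 months and 135 at 18 months. Its usage log2 difference was 1.04, with an unadjusted p of 0.0482 and an edgeR adjusted p of 0.946. Per base and relative to the flanking exons, the Mef2d beta exon stood at 4.36, 3.95 and 3.61 at 28 months and at 3.33 at 18 months, and that of Mef2a at 3.41, 2.85 and 2.87 at 28 months and at 2.38 at 18 months. Nearby bins stood on the same side of 0: the flanking exons had usage log2 differences of 0.79 and 0.98 in Mef2d and of 0.91 and 0.45 in Mef2a, and the next bins on the 3′ side stood at 1.04 in Mef2d and 0.99 in Mef2a. A lower share at 18 months was the order in 54.3% of all bins. Neither beta exon was called with all libraries, without replicate 1 or without replicate 3. Without replicate 2 both were, with edgeR adjusted p of 0.0163 in Mef2d and 0.00551 in Mef2a. An exon of Mef2a known only from a decay transcript had 3, 2 and 2 counts at 28 months, against 1 at 18 months.

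The Camk2b linker holds adjacent, similar exons known from long muscle forms of the kinase. Those of bins 17 and 16 lie on the minus strand at chr11:5978399-5978512 and chr11:5977812-5977940 and were identical at 68.2% of aligned columns. Reads may be hard to assign between such exons, and how the authors treated them is not given in the sources used here. Both were minor exons in each library. The exon of bin 17 had 292, 142 and 270 counts at 28 months, against 140 at 18 months, which per base was 0.266, 0.424 and 0.293 of its flanking exons at 28 months and 0.392 at 18 months. The exon of bin 16 had 216, 104 and 231 counts at 28 months, against 102 at 18 months, or 0.174, 0.275 and 0.222 of its flanks at 28 months and 0.253 at 18 months. In both, the 18-month ratio lay inside the 28-month range, and neither was called, with or without replicate 2.

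Of the other linker exons of Camk2b, 3 that were used more are given, and not every linker exon of the gene is reported here. The exon at chr11:5987057-5987131 stood at 0.606, 0.656 and 0.559 of its flanks per base at 28 months and at 0.705 at 18 months. That at chr11:5982501-5982572 stood at 0.791, 0.707 and 0.710 at 28 months and at 0.798 at 18 months. That at chr11:5981070-5981114 stood at 1.25, 1.26 and 1.23 at 28 months and at 1.31 at 18 months. In these 3 the 18-month ratio lay just above the 28-month range. Bin usage, on which calls rest, went the other way, with log2 differences of 0.68, 0.67 and 0.58 in the same order. None of the 3 was called, with or without replicate 2. A 33-base exon of 1 annotated transcript at chr11:5989936-5989968 had 0 counts in all libraries. Ratios per base overstate very short exons, since a read covers more than the exon.

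The bin with the smallest p lay at or next to the 3′ end in Camk2d and Camk2g. In Camk2d, bin 64, next to the 3′ end, had 952, 1089 and 768 counts at 28 months, against 1882 at 18 months. It held 13.2 ± 1.06% of tested bins at 28 months (SD, n = 3) and 28.4% at 18 months, at a usage log2 difference of -1.11 (edgeR adjusted p = 0.773; 0.00231 without replicate 2). In Camk2g the 3′-most bin held 26.2 ± 2.10% at 28 months (SD, n = 3) and 49.6% at 18 months, at -0.91 (edgeR adjusted p = 1.00; 0.0212 without replicate 2). This single bin thus held nearly as many counts at 18 months as all the others together.

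In the other members the bin of smallest p took a larger share at 28 months. Camk2a bin 26 held 5.76 ± 0.225% at 28 months (SD, n = 3) and 3.10% at 18 months, at a usage log2 difference of 0.89 (edgeR adjusted p = 1.00; 0.0261 without replicate 2). Camk2b bin 28 held 3.45 ± 0.149% at 28 months (SD, n = 3) and 1.46% at 18 months, at 1.26 (edgeR adjusted p = 1.00; 0.000381 without replicate 2). Mef2c bin 10 held 2.47 ± 0.186% at 28 months (SD, n = 3) and 1.23% at 18 months, at 0.99 (edgeR adjusted p = 0.986; 0.0115 without replicate 2). Mef2a bin 23, near the 5′ end, had the smallest p of all member bins, 0.00459 (edgeR adjusted p = 0.385), on only 17, 19 and 5 counts at 28 months, against 1 count at 18 months.

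In the genes whose bins were not placed, the tested bin lowest against its neighbours was singled out by a rule added after the counts were seen. In Camk2g this was bin 8, with 52, 64 and 36 counts at 28 months, against 27 at 18 months, or 0.124, 0.151 and 0.120 of the mean of the adjacent bins at 28 months and 0.160 at 18 months. In Camk2d it was bin 48, with 9, 24 and 13 counts at 28 months, against 10 at 18 months. In Mef2c it was bin 15, beside a 3′ bin of far higher counts, with 694, 548 and 565 counts at 28 months, against 512 at 18 months. None of the 3 was called with all libraries (edgeR adjusted p = 1.00 each), and without replicate 2 only the Mef2c bin was (edgeR adjusted p = 0.0240).

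The genes around the 2 families were taken as 5 lists, and 0 genes of any list were called by edgeR with all libraries. Of the 20 tested Mef2 partners and regulators, 12 had log2 differences above 0 and 8 below, with a median of 0.03, against 0.06 over all genes. The myogenic factor Myog had 1.87, 1.81 and 2.12 CPM at 28 months, against 3.72 CPM at 18 months, and the deacetylase Hdac9 had 5.72, 8.21 and 5.48 CPM at 28 months, against 3.69 CPM at 18 months. The other 2 named by smallest p were Tead1, a partner factor at M-CAT elements, at a log2 difference of -0.54, and Sik1, a kinase of class II deacetylases, at -0.75.

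Among 13 tested regulators of calmodulin kinases, 9 had log2 differences below 0, with a median of -0.19. Camk2n1, an inhibitor of the kinase, had 10.2, 16.2 and 8.75 CPM at 28 months, against 25.1 CPM at 18 months, at -1.10 ± 0.40 (unadjusted p = 0.0380; edgeR adjusted p = 0.859). Camk1, a related kinase, had 54.4, 57.9 and 52.0 CPM at 28 months, against 35.7 CPM at 18 months, at 0.62. The phosphatase Ppm1e and the inhibitor Camk2n2 were below 1 CPM in every library, at -1.17 and -1.01.

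Of 18 Mef2 target genes of muscle, 9 had log2 differences above 0 and 9 below, with a median of 0.00. Xirp2, an actin-binding protein of striated muscle, had 982, 620 and 921 CPM at 28 months, against 1883 CPM at 18 months, at -1.16 ± 0.41 (unadjusted p = 0.0352; edgeR adjusted p = 0.859). Its relative Xirp1 was at -0.79 and myoglobin, Mb, at -0.80, while the kinase Srpk3 was at 0.78. Among 11 substrates and neighbours of the kinase, 7 had log2 differences above 0 and 4 below, with a median of 0.19. Those of smallest p were Srl, sarcalumenin, at -0.83, the slow-type calcium pump Atp2a2 at -0.55, Ryr2 at 2.45 and Pln, phospholamban, at -0.56. Ryr2 lay below 1 CPM in every library. Pln had 0.779, 1.31 and 0.845 CPM at 28 months, against 1.44 CPM at 18 months.

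Of 12 splicing regulators, 9 had log2 differences below 0, with a median of -0.30. Mbnl2, a regulator of muscle exons, had 135, 123 and 127 CPM at 28 months, against 216 CPM at 18 months, at -0.75 ± 0.27 (unadjusted p = 0.0354; edgeR adjusted p = 0.859). Mbnl1 was at -0.61, the muscle splicing factor Rbm24 at -0.48 and Srpk3 at 0.78. The list medians depended on the bins taken. Over the 5′ side of bins, in the order given here, they were -0.15, 0.07, -0.18, -0.18 and -0.03, against 0.06 over all genes. Those fits were scaled to 5′ bins alone, and the part of the tilt in the lists was not tested. Without replicate 2, edgeR called 3 of 20 Mef2 partners, 2 of 13 kinase regulators, 6 of 18 Mef2 targets, 4 of 10 kinase substrates and 3 of 12 splicing regulators, where 11.9% of all genes were called.

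Over the 4 libraries, log2 CPM of Mef2a and Mef2c had a Pearson r of 0.96 and that of Camk2a and Camk2b an r of -0.11, given as a description of 4 libraries. The gene most like Mef2a was Ppp2r3a, with 261, 226 and 258 CPM at 28 months, against 334 CPM at 18 months. Rnf10 was most like Camk2b, with 796, 346 and 748 CPM at 28 months, against 571 CPM at 18 months. For Camk2a it was Grpel2, for Camk2d Cyb5d2 and for Camk2g Nsmce2, and units joining several genes were most like Mef2c and Mef2d. These likenesses had a Pearson r of 0.999 to 1.00, and with 4 libraries such values are common: 21 to 223 of the 7640 genes compared had an r above 0.99 with a given member.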

How the data were processed

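The authors deposited, for each library, a table of raw counts by exonic bin, not normalized. The tools were bcl2fastq 1.8.3 and TopHat2 2.0.4 with the build GRCm38, per the submitters' processing notes. The counter, annotation release, strand setting and handling of multi-mapped reads are not given in the sources used here, so reads of antisense or overlapping genes cannot be told apart. Bins are named as DEXSeq's counting script names them, and that script can count a fragment once in every bin it touches. Special entries that name no gene, 3.43, 4.56 and 3.36% of entries in 28-month replicates 1, 2 and 3 and 5.20% at 18 months, were left out.

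The members and lists were chosen with earlier results of these data known. Bins (374286, in 40137 gene units, 949 of them joined) were summed per gene and scaled by TMM (factors 0.877, 1.28 and 0.897 at 28 months and 0.990 at 18 months). Units averaging 10 counts or more were tested with edgeR's quasi-likelihood test, and bins with diffSpliceDGE, Simes p-values and Benjamini-Hochberg adjustment, called under 0.05. The 2 residual degrees of freedom came from the 28-month group, with a common biological coefficient of variation of 0.378, and the lone 18-month library is assumed to vary like them. The gene and bin fits were tested on simulated data with changes larger than most of those reported here. Bins were simulated only at a lower coefficient of variation than that of the gene fit. Exact 95% intervals, and the limit of 3 counts behind a 0, cover counting error only.

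Bins were placed with GENCODE M21 transcripts numbered up to 192000, the limit giving the most genes with equal numbers of bins (22407 of 25007, 89.6%). Equal numbers do not prove placement. Mef2a, Mef2d, Camk2a and Camk2b were placed, and Mef2c, Camk2d and Camk2g were not and took the length of their longest coding transcript. The alternative exons were taken from the annotation after the counts had been seen, and results for some exons are not reported here.

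All members, each member's bin of smallest p, the annotated alternative exons, up to 4 genes a list by smallest p and the gene most alike in log2(CPM + 1) were named. Alternatives were DESeq2 size factors and Wald test, other count filters, libraries left out, other library sizes, limma, the F-test, end bins left out and other lengths, with 5′ or 3′ bins alone and 3 of the lengths added after the data were seen. The software was Python 3.11.15, pandas 2.3.3, scipy 1.17.1, biopython 1.88, matplotlib 3.10.9, and, in R 4.3.3, DESeq2 1.42.0, edgeR 4.0.16 and limma 3.58.1.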

Additional observations from a re-analysis of the deposited data

How the results depend on the processing

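Of 62 alternative values of member expression, 60 kept their direction and their side of the threshold. Camk2b passed it without 28-month replicate 2, and Camk2d turned to 0.26 over the 5′ side of its bins, in a fit scaled to 5′ bins alone. Leaving out each 28-month library gave 0 to 1 called members, and, in the lists, 0 to 3 Mef2 partners, 0 to 2 kinase regulators, 0 to 6 Mef2 targets, 0 to 4 kinase substrates and 0 to 3 splicing regulators. For bin usage it gave 0 to 5 genes and 0 to 49 single bins, the F-test gave 6 genes, and limma gave 2 genes and 7 bins. Over all genes, 0 were called for expression, against 31 by DESeq2, 1799 without replicate 2 and 1 without replicate 3. For bin usage 389 genes were called, against 234 at a mean of at least 30 counts, 3375 by the F-test, 1765 by limma, 206 without end bins, and 236, 3250 and 171 without replicates 1, 2 and 3. The share difference of Mef2d was 3.31 points without division by length. That of Camk2g was 3.53 points without it, 3.81 with the longest coding transcript and 2.93 with Camk2a also left out. The cause was not tested. No paired analysis was possible because the 18-month group is 1 library. That library limits every comparison, and no fit could leave it out.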
